A study of Sus scrofa with 13 samples.

Results

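Adipose tissue of Guizhou mini-pigs was compared with 8 other organs of the same breed, all taken 240 days after birth. These organs were spleen, liver, kidney, lung, heart, ovary, testis and the longissimus dorsi, a long skeletal muscle of the back that is called muscle here. Members were chosen by the tissue and age in the sample labels, so that 1 adipose library was set against 8 libraries, 1 per organ, out of 13 libraries in the series. Each library listed 32420 features, namely 21607 genes of the Ensembl annotation and 10813 long non-coding RNAs (lncRNAs), which are transcripts without coding capacity that the authors had assembled from these samples. The breed and the age were shared by all 9 groups, and the labels name no treatment. According to the labels, the RNA was freed of ribosomal RNA and sequenced from both ends with strand kept, by SMART or dUTP library construction, without saying which library had which. The fat depot, the sex and number of the animals, and whether organs came from the same animal were not given, except that testis and ovary cannot share 1 animal. The 4 libraries outside the comparison were muscle at day 0 and day 30 and 2 pools of RNA that span several breeds and ages, a tissue mixture and a muscle mixture of longissimus dorsi.

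White adipocytes store triglyceride in a lipid droplet coated by perilipins, fill it with fatty acids taken up from blood or made from glucose, and release it again through hormone-regulated lipases. The nuclear receptor PPARG drives the formation of adipocytes, and the mature cell secretes hormones called adipokines. In pigs, adipose tissue rather than liver is known as the main site of fatty acid synthesis. The tissue also holds fibroblasts, vessels, nerves and immune cells.

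Expression was given as RPKM, which divides reads by the feature's length and by the sequencing depth, so levels can be set side by side between genes. Differences are given on the log2(RPKM + 0.1) scale as adipose minus the highest, or minus the median, of the 8 other organs, where 1 stands for 2-fold and low features are understated. As there was 1 library per organ, no difference had a replicate check, no test between organs was possible, and the spread between animals is unknown. The whole reads behind each RPKM value could be recovered from the values, and 95% intervals, Poisson for a level and exact binomial for a ratio, are given from them. They cover counting error only. The reads placed on listed features were 4492285 in adipose and 3629806 to 12394421 in the other organs, which was 11.9% of the reads behind RPKM in adipose and 11.6% to 38.0% in the others. The RPKM values therefore summed to 66656 in adipose, 214285 in ovary and 190421 in testis, and most genes read lower in adipose than in these organs before any scaling. In total RNA of a whole tissue, fewer cells of a type and less RNA per cell cannot be told apart.

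Of the Ensembl genes, 15252 reached 1 RPKM in at least 1 of the 9 organs. Adipose was at least 2-fold above every other organ for 112 of them (0.734%), of which 48 were at least 4-fold above. As deposited, this was the smallest such number of the 9 organs, which ran from 173 in heart and 203 in muscle to 2014 in ovary and 2576 in testis under the same rule. The organ with the next highest level was ovary for 35 of the 112 genes, lung for 15, testis for 14 and liver for 13, and 5 genes had no read in any other organ. Over all 15252 genes, ovary was the highest of the 9 organs for 5536 and testis for 4625. When RPKM was scaled, fewer genes reached 1 RPKM, namely 13845 with the same median ratio and 13584 with the same total. Of these, 210 and 251 were at least 2-fold above every other organ. The other organs were not counted again after scaling, so the rank of adipose among them was then not tested. On the low side, 57 genes (0.374%) were at least 2-fold below every other organ. Against the median organ, 1575 genes (10.3%) were at least 2-fold higher and 2930 (19.2%) at least 2-fold lower, so that 35.0% of these genes were higher. That share was 58.6% with the same median ratio and 71.0% with the same total. The median difference was -0.27 over the 15252 genes. Over the fewer genes tested after scaling, it was 0.00 with the same median ratio and 0.16 with the same total. Differences of gene lists are to be read against these shifts.

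**Figure D1:**
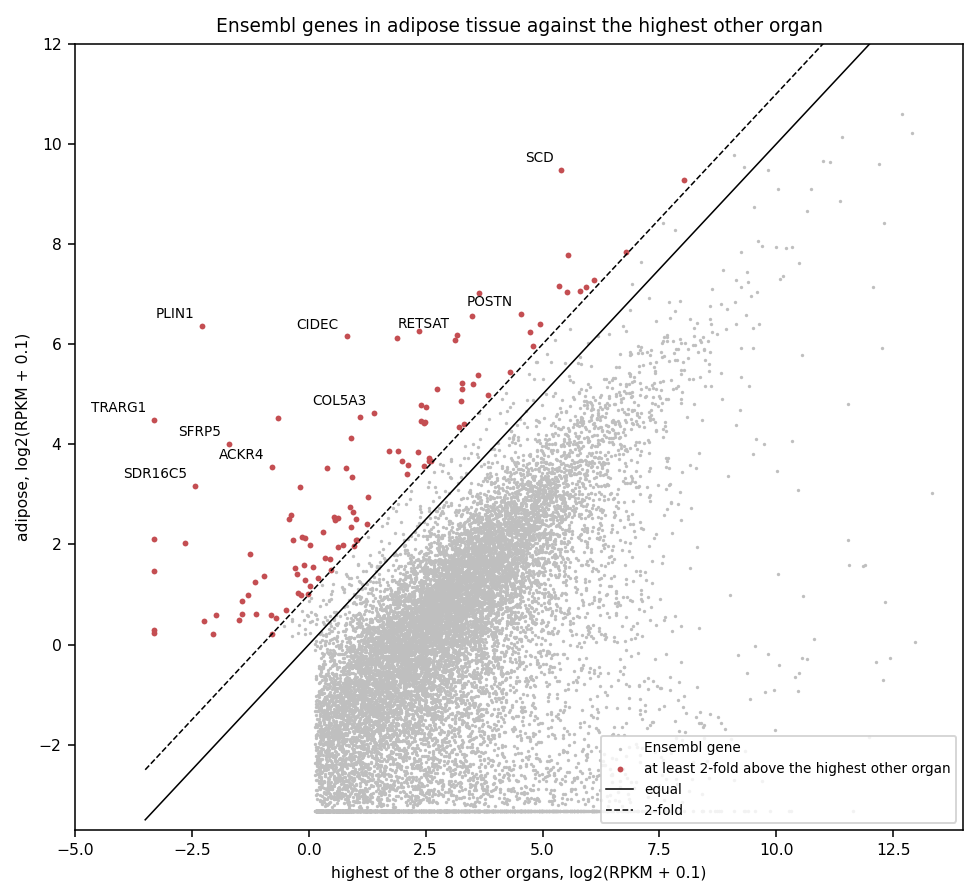
Each point is 1 of 15252 Ensembl genes, with the level in the highest of the 8 other organs on the x axis and the level in adipose on the y axis, both as log2(RPKM + 0.1), 1 library per organ. The 112 red points lie at least 2-fold above the highest other organ, PLIN1 and TRARG1 farthest from the line of equal levels, and the points at the bottom are genes with no read in adipose.

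The label was checked against adipocyte genes. Of 79 genes of 8 adipocyte lists that reached 1 RPKM, 23 were highest in adipose, 14 of them by at least 2-fold, and 42 were at least 2-fold above the median organ, against 9 at least 2-fold below it. Over all 15252 genes, 278 (1.82%) were highest in adipose. Of 100 markers of other cell types and organs, with matrix genes left apart, 14 were at least 2-fold above the median organ, 17 were at least 2-fold below it and 0 were highest in adipose, which is close to the share of all genes. The library labelled adipose thus held adipocyte transcripts. Scaling moved single genes across these limits, as 31 of the 79 adipocyte genes were highest in adipose with the same total, 24 of them by at least 2-fold, and 29 with the same median ratio, 14 of them by at least 2-fold. Values of ovary and testis were multiplied by 0.311 and 0.35 for the same total and by 0.287 and 0.425 for the same median ratio, while those of liver and muscle were multiplied by 1.69 and 1.63 for the latter. Levels below are as deposited, and a scaling is named where it changed which organ was highest or the 2-fold limit. The best known adipokine genes ADIPOQ and LEP, and LPL, CD36 and FABP4 of fatty acid uptake, had no identifier paired with their symbol and were not analysed here.

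Among genes of the lipid droplet were the largest and the fifth largest difference from the highest other organ of all genes with a symbol and at least 5 RPKM in adipose, those of PLIN1 and CIDEC. PLIN1, the perilipin that coats the droplet of mature adipocytes and guards it from lipases, had 82.1 RPKM in adipose (95% interval 79.8 to 84.4, 4895 reads). The other organs ran from 0 in heart, spleen and ovary through a median of 0.0302 to 0.104 in kidney, so adipose was 786-fold above the highest (361 to 2142). CIDEC, which fuses small droplets into 1 large droplet, had 71.2 RPKM in adipose (68.8 to 73.6) against 0 to 1.65 and a median of 0.0770 in the others, and lung as the highest was 43.1-fold lower (34.5 to 54.6). Both genes were thus far apart from every other organ, with no overlap. PLIN4, another perilipin, was 10.7 RPKM in adipose, but muscle came close with 7.77, heart had 3.25, and the median was 0.282. Muscle came to 12.7, above adipose, with the same median ratio. With the same total it came to 3.96, and adipose was then more than 2-fold above every organ.

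For the lipases that break triglyceride down, another organ often came close to adipose or above it. LIPE, the hormone-sensitive lipase, had 10.03 RPKM in adipose (9.47 to 10.6) and 8.05 in testis, with a median of 0.201 over the 8 organs, so that 2 organs stood out from the rest, but testis was 3.42 or less under the scalings. MGLL, which releases the last fatty acid from glycerol, had 41.4 RPKM in adipose and 47.1 in heart (26 with the same total), with a median of 6.14. PNPLA2, the lipase of the first step, was low everywhere, with 2.37 RPKM in adipose, 2.90 in testis and a median of 0.937, and its coactivator ABHD5 had 1.34 in adipose, 2.86 in testis and a median of 0.576. With the same total and with the same median ratio, testis came to 1.01 and 1.23 for PNPLA2 and to 1.0 and 1.22 for ABHD5, below adipose. Of the 9 droplet and lipolysis genes, 4 were highest in adipose (7 with the same total, 5 with the same median ratio). Against the median organ, 7 were at least 2-fold above it and 0 below it, and the median difference was 2.74. PLIN5, the perilipin of oxidative tissues, was 0.238 RPKM in adipose, below its median of 0.541, and peaked in kidney with 2.71.

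Genes of fatty acid synthesis summed to 1252 RPKM in adipose, against 7.63 to 315 in the other organs, with SCD as the largest part. SCD, the desaturase that makes oleate from stearate, had 717 RPKM in adipose (713 to 721), and its 151211 reads were 3.37% of all counted reads of the library. The lowest other organ was heart with 0.204, the median was 13.7 and the highest was ovary with 42.2, a 17.0-fold difference (16.5 to 17.5). FASN, the fatty acid synthase, had 131 RPKM in adipose (129 to 133), 45.8 in liver and 13.3 in lung, with a median of 3.37. ACACA, the carboxylase that makes malonyl-CoA for FASN, had 41.8 RPKM in adipose (41.0 to 42.6) and 12.1 in liver, with a median of 5.38. For both enzymes liver came next, 2.86-fold below adipose for FASN (2.78 to 2.94, but within 2-fold with the same median ratio, where liver came to 77.6) and 3.44-fold for ACACA (3.29 to 3.59).

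Enzymes that supply carbon and NADPH for this synthesis were also high. ME1, the malic enzyme that yields NADPH, had 34.3 RPKM in adipose (33.4 to 35.2), against 9.58 in ovary and a median of 0.286 in the others. ACLY, which splits citrate into acetyl-CoA, had 148 RPKM in adipose and 121 in ovary, with a median of 8.94. As deposited, ovary was thus the only organ within 2-fold of adipose for ACLY, but it came to 37.5 and 34.6 under the scalings, where no organ was. TKT, a transketolase of the pentose phosphate pathway, had 79.0 RPKM in adipose and 47.7 in ovary, and it was more than 2-fold above every organ under both scalings. PC, which replenishes oxaloacetate, had 42.6 in adipose, 26 in testis and 24.8 in kidney (16.3 as the highest other with the same total). ELOVL5, an elongase of polyunsaturated fatty acids, had 50.0 RPKM in adipose, 36.3 in testis and 30.1 in ovary, and testis came to 12.7 and 15.4 under the scalings. Of the 12 genes of the list, 8 were highest in adipose (9 with the same median ratio). Of them, 4 were so by at least 2-fold as deposited, 8 with the same total and 6 with the same median ratio. Against the median organ, 9 were at least 2-fold above it and 2 below it, and the median difference was 3.47. The 2 low members were the desaturases of polyunsaturated fatty acids, FADS1 with 0.498 RPKM against a median of 1.26 and FADS2 with 1.25 against 5.84, both highest in ovary. MLXIPL, a glucose-responsive activator of lipogenic genes, was 2.58 in adipose and 9.23 in liver, with a median of 0.0772.

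Of 8 genes of fatty acid uptake and triglyceride synthesis, 6 were at least 2-fold above the median organ and 1 below it, with a median difference of 1.59. Only FABP5 was highest in adipose as deposited, while 3 genes were under either scaling. FABP5, a fatty acid binding protein, had 624 RPKM in adipose (616 to 632), 262 in heart and 121 in lung, with a median of 50.1 and a lowest level of 1.1 in liver. ACSL1, which activates long-chain fatty acids to acyl-CoA, had 71.3 RPKM in adipose and 72.7 in liver, a ratio of 0.981 (0.95 to 1.01). As deposited, the 2 organs could thus not be told apart by counting error, but with the same median ratio liver came to 123. GPD1, which makes the glycerol backbone, was 14.1 in adipose and 66.5 in muscle. As deposited, adipose stood above most organs for these genes while another organ led. The last step enzyme DGAT1 was low in all organs, with 1.25 RPKM in adipose and 0.0794 to 2.07 in the others, and adipose was highest under both scalings. SLC27A1, a fatty acid transporter, read lower in adipose (0.230 RPKM, 13 reads) than in every other organ as deposited. These ran from 0.368 in liver to 2.84 in heart, and the difference from liver was within counting error.

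The regulators of adipocyte formation were led by PPARG. It had 31.4 RPKM in adipose (30.1 to 32.7), 14.2 in ovary and 11.1 in spleen, with a median of 0.767 and a lowest level of 0.1 in muscle. Adipose was the highest, and 2 further organs stood above the remaining 6, which had 1.68 RPKM at most. EBF1, an early factor of the adipocyte lineage that also acts in B cells, had 6.15 RPKM in adipose (5.46 to 6.89) and 1.84 in ovary. Its relative EBF2 had 1.31 in adipose and 0.834 in heart (0.460 with the same total), and ZNF423, a factor of preadipocyte commitment, had 2.41 in adipose and 1.77 in lung. CEBPA, the partner of PPARG in mature fat cells, had 1.44 RPKM in adipose (58 reads) and 7.62 in liver, with a median of 0.0387. Of 9 factors, 4 were highest in adipose, 6 were at least 2-fold above the median organ and 1 below it, with a median difference of 2.84, which was 1.13 with a pseudocount of 1. The nuclear receptor NR1H3 (2.14 in adipose, median 4.50) and the corepressor TLE3 (0.430 in adipose, median 1.05) were among those not raised.

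Among secreted factors, SFRP5 stood apart. SFRP5, a secreted inhibitor of Wnt signalling that is counted as an adipokine, had 16 RPKM in adipose (15.1 to 17.0), against 0 in ovary, a median of 0.131 and 0.204 in kidney, a 78.5-fold difference from the highest (45.7 to 148). CFD, or adipsin, a protease of the complement system, had 6.19 RPKM in adipose, below spleen with 8.57 and lung with 7.69. RBP4, the carrier of retinol in blood, had 5.88 in adipose, 6.06 in lung and 93.0 in liver. RETN was listed at 0 in all 9 organs. All 3 measured adipokines above 1 RPKM were thus at least 2-fold above the median organ, with a median difference of 4.12, but only SFRP5 was highest in adipose.

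Receptors and signalling genes of the fat cell were split. KLB, the coreceptor for the hormone FGF21, had 12.5 RPKM in adipose (11.9 to 13.2) and 3.89 in liver, and at most 0.0618 in the other organs, where 7 reads or fewer were found. At the same median ratio, liver came to 6.59 and so within 2-fold of adipose. ADIPOR2, an adiponectin receptor, had 84.0 RPKM in adipose (81.3 to 86.8), 30.6 in liver (51.9 with the same median ratio) and 26.3 in testis, whereas ADIPOR1 was 3.0 in adipose within a range of 2.24 to 5.57. GHR, the growth hormone receptor, had 21.1 RPKM in adipose, 9.84 in liver (16.7 with the same median ratio) and 7.67 in muscle, and AKT2, the kinase that carries the insulin signal, had 10.1 in adipose and 9.39 in testis. The insulin receptor INSR (1.61 RPKM, median 3.23) and its substrate IRS1 (1.86, median 3.47) were below the median organ by less than 2-fold. ADORA1, an adenosine receptor that restrains lipolysis, had 2.21 RPKM in adipose and 2.28 in testis (0.969 or less under the scalings), with a median of 0.144. The adrenergic receptor ADRB3 had no read in adipose, which allows up to 0.0649 RPKM at 3 reads. SLC2A4, the insulin-regulated glucose transporter, was listed at 0 in adipose and at 0.0370 in muscle, its highest level, where it is known to be abundant, so this feature was not read as a measure of the gene. Of 13 genes of the list, 4 were highest in adipose (6 under either scaling). Against the median organ, 7 were at least 2-fold above it and 0 below it, with a median difference of 1.21.

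Genes of heat production were not raised as a group. Of 10 genes, 3 were at least 2-fold above the median organ and 5 below it, with a median difference of -0.91, -0.70 with the same median ratio and -0.51 with the same total. PPARGC1A, the coactivator of mitochondrial biogenesis, had 0.376 RPKM in adipose (38 reads) against 12.9 in heart and 15.8 in kidney, and CPT1B, the muscle-type carnitine palmitoyltransferase, had 0.385 against 34.6 in heart. PRDM16, a regulator of brown fat identity, had 1 read in adipose (0.00807 RPKM) against a median of 0.747. All 3 genes were thus below the median organ. The 3 genes above the median organ were UCP3, ZIC1 and EBF2, the last of which also stands in the list of adipocyte regulators. UCP3, a mitochondrial uncoupling protein known from muscle, had 3.82 RPKM in adipose (3.49 to 4.17), 1.85 in muscle and at most 0.130 in the other organs, and with the same median ratio muscle came to 3.02. ZIC1, a transcription factor marker of classical brown fat, had 1.56 RPKM in adipose (103 reads) and 5.16 in muscle, and it was at 0 in 5 organs. UCP1, DIO2 and COX7A1 were not analysed here, as no identifier was paired with them. The list called amino acid breakdown below held 16 genes that break down branched-chain amino acids and other substrates in mitochondria. Of these, 0 were highest in adipose (1 with the same total). Against the median organ, 2 were at least 2-fold above it and 0 below it, with a median difference of -0.01 that was 0.77 with the same total. The 2 were OXCT1, which uses ketone bodies, with 48.6 RPKM in adipose and 56.6 in heart (31.2 with the same total), and MCCC2 of leucine breakdown, with 30.8 in adipose and 75.2 in kidney.

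**Figure D2:**
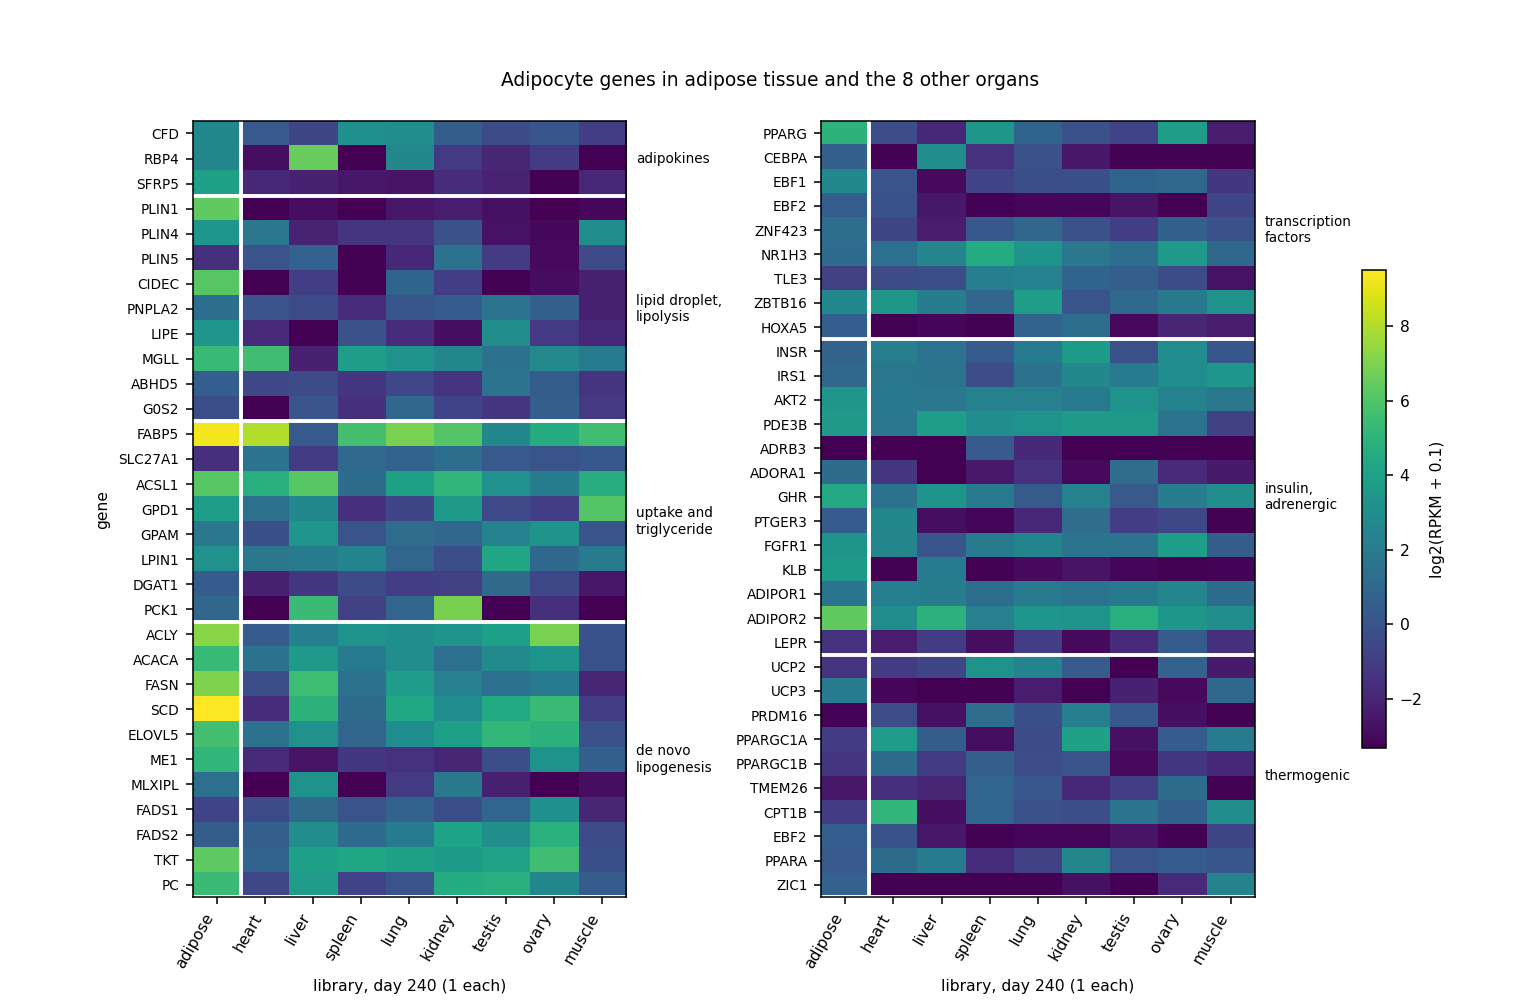
The colour gives log2(RPKM + 0.1) of genes of 7 adipocyte lists (rows, grouped by list) in 9 libraries of 240 days (columns), 1 library each and muscle for longissimus dorsi, with lighter colours for higher levels. The adipose column is the lightest for PLIN1, CIDEC, FABP5, FASN, SCD, ME1 and PPARG, while the heat production genes PPARGC1A and CPT1B are lighter in heart than in adipose.

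Genes of the extracellular matrix were the second large group. Of 18 matrix and fibroblast genes, 8 were highest in adipose (12 under either scaling), 5 of them by at least 2-fold, 14 were at least 2-fold above the median organ and 1 below it, with a median difference of 2.71. LUM, lumican of collagen fibrils, had 67.6 RPKM in adipose (66.2 to 69.1) and 8.68 in heart, with a median of 3.03. The chains of collagen VI, which forms the mesh around adipocytes, had 29.1 RPKM for COL6A1 (highest other lung with 9.46), 39.2 for COL6A2 (lung with 28.3, or 16.2 with the same median ratio) and 76.1 for COL6A3 (ovary with 26.5). COL1A2, a chain of collagen I, had 309 RPKM in adipose and 227 in ovary, with a median of 8.01, and COL3A1 had 427 in adipose and 733 in ovary, with a median of 11.3. As deposited, adipose and ovary thus stood above the other 7 organs for these 2 chains, where lung came next with 19.8 for COL1A2 and 33.1 for COL3A1. Under the scalings ovary came to 70.5 and 65.1 for COL1A2 and to 228 and 211 for COL3A1, so that adipose was then the highest for both. SPARC, which binds collagen, had 231 RPKM in adipose and 109.9 in ovary, and the proteoglycan DCN had 201 in adipose and 137 in ovary, which became 42.6 with the same total. DPP4, a surface marker of fibroblast progenitors, was 0.274 RPKM in adipose against a median of 1.90. Summed over the matrix list as deposited, adipose had 1532 RPKM, ovary 1493 and the median organ 172.

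Markers of other cells lay on both sides of the median organ. The counts are to be read beside those of all 15252 genes, of which 10.3% were at least 2-fold above it and 19.2% below it. Of 9 endothelial genes, 0 were highest in adipose and 2 were at least 2-fold above the median organ, namely PECAM1 with 23.4 RPKM (median 7.35, lung 39.2) and the transcription factor ERG with 3.92 (median 1.82). The 10 macrophage genes had 0 members above the median organ by 2-fold and 2 below it, and their summed level was 11.2 RPKM in adipose against 1.81 to 133 in the others. CD68, a macrophage marker, was at 0.987 RPKM. Of 14 lymphocyte genes, 1 was above by 2-fold and 3 were below, with 0 reads for MS4A1 and CCR7. The 1 was CCL19, a chemokine of lymphoid stroma, with 5.35 RPKM and a median of 1.93. Skeletal muscle genes summed to 13.5 RPKM in adipose and 18214 in muscle, with ACTA1, the skeletal actin, at 2.91 RPKM in adipose and 2998 in muscle, so the muscle markers were detectable in adipose but far below their level in muscle. Blood genes summed to 7.26 RPKM in adipose, the eighth of 9 organs, and epithelial and mammary genes to 1.91 RPKM, with the tight junction gene CLDN4 at 0 reads and the milk protein gene CSN2 at 1 read. Steroid enzymes CYP11A1, CYP17A1 and CYP21A2 had 0 reads in adipose, whereas CYP11A1 had 638 RPKM in ovary. Of 7 smooth muscle and pericyte genes, 0 were above the median organ by 2-fold and 1 was below it, the 2 measured nerve and Schwann cell genes were both above it (median difference 1.35), and the 1 measured mesothelial gene was below it (-2.55). Lists of genes typical of heart, liver, spleen, lung, kidney, testis and ovary had median differences between -0.63 and 0.20. The part of these cells in the adipocyte and matrix results was not tested.

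**Figure D3:**
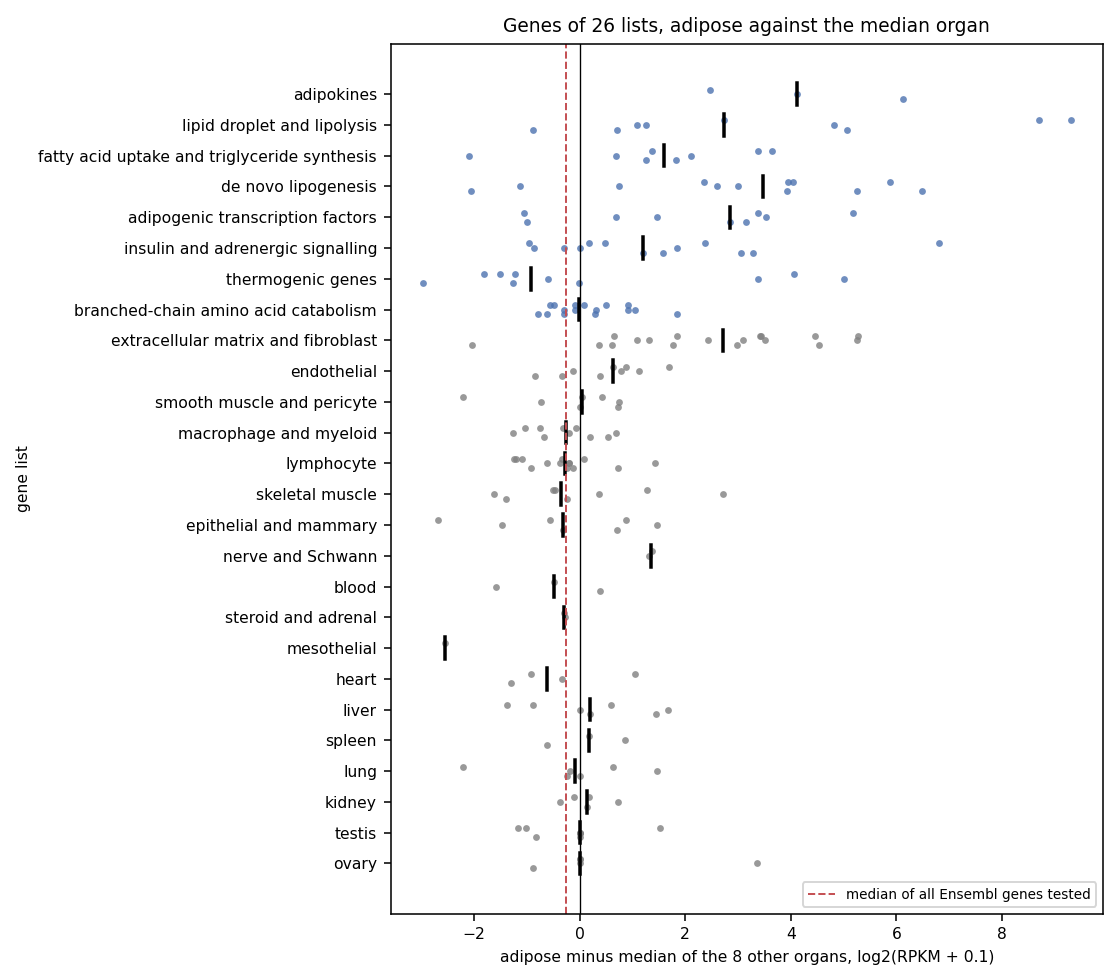
Each point is 1 gene with at least 1 RPKM in at least 1 of the 9 organs, placed on the x axis by its level in adipose minus the median of the 8 other organs on the log2(RPKM + 0.1) scale, in rows by gene list, with adipocyte lists in blue. Black bars are list medians and the red dashed line is the median of all 15252 genes (-0.27). The bars of 6 of the 8 adipocyte lists (1.21 to 4.12) and of the matrix list (2.71) lie to its right by more than 1. So does the bar of the nerve and Schwann cell list (1.35), which rests on 2 genes.

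The 25 genes with a symbol, at least 5 RPKM in adipose and the largest differences from the highest other organ ran from 8.65 for PLIN1 to 1.83 for ME1. All 25 stayed at least 2-fold above the highest other organ under both scalings, with differences of 1.47 to 8.92 for the same median ratio and 2.19 to 8.93 for the same total, and leaving out an organ can only raise such a difference. In the same range, 14 Ensembl genes had no symbol, with 5.76 to 221 RPKM in adipose. Besides the genes above, the 25 held members of several kinds. TRARG1, a membrane protein of insulin-responsive transporter vesicles, had 22.5 RPKM in adipose (20.6 to 24.4, 536 reads) and 0 reads in all 8 others, at least 103-fold higher when each of these libraries is set at 3 reads. SDR16C5, a retinol dehydrogenase, had 8.92 RPKM in adipose (434 reads), 0 in 5 organs and 0.0840 in lung, its highest other organ. RETSAT, retinol saturase, had 72.3 RPKM in adipose (70.4 to 74.2) against 0.482 in muscle, a median of 4.78 and 8.95 in ovary. Both enzymes of retinoid metabolism were apart from all other organs.

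Surface and signalling genes in the list included ACKR4, a receptor that scavenges the chemokines CCL19 and CCL21, with 11.6 RPKM in adipose (10.8 to 12.4) and 0.481 in ovary. BTNL9, a butyrophilin-like membrane protein, had 10.1 RPKM in adipose, 1.79 in spleen and 1.27 in heart, and at most 0.765 elsewhere. PPP1R1B, an inhibitor of protein phosphatase 1 known from dopamine signalling, had 21.6 RPKM in adipose, 5.47 in testis and a median of 0.208. SLC36A2, an amino acid transporter known as a surface marker of brown and beige adipocytes, had 5.67 RPKM in adipose (73 reads), 1.44 in testis and 0 in the other 7 organs. TSPO, a protein of the outer mitochondrial membrane, had 5.6 RPKM in adipose and 0.643 in lung, but it was higher in the tissue mixture. Whether this feature measures the whole gene was not tested. Among metabolic enzymes were ALDOC, an aldolase best known from brain, with 27.7 RPKM in adipose and 5.18 in ovary, and ECHDC1, which removes a wrongly carboxylated fatty acid precursor, with 26.7 in adipose and 5.55 in kidney. AGPAT1, an acyltransferase of phosphatidic acid synthesis, had 21.5 RPKM in adipose and 5.39 in testis.

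Secreted and matrix proteins made up a further part of the 25 genes. POSTN, periostin, had 97.2 RPKM in adipose (95.8 to 98.6) and 23.1 in ovary, with a median of 2.03 and a lowest level of 0.0526 in muscle. The collagen V chains COL5A3 and COL5A1 had 24.6 and 14.5 RPKM in adipose and 2.54 and 3.66 in their highest other organs, ovary and lung. ITGBL1, an integrin-like secreted protein, had 34.5 RPKM in adipose and 6.56 in ovary, and ANGPTL1, an angiopoietin-like secreted factor, had 14.6 in adipose and 3.18 in muscle. The homeobox genes SHOX2 (5.93 RPKM, 0.673 in ovary) and MEOX2 (5.49, 1.38 in lung) and the glycosyltransferase GALNT16 (6.60, 1.74 in testis) completed the list.

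Few abundant genes were lower in adipose than everywhere else. Among genes with a symbol and at least 5 RPKM in each of the 8 other organs, the 10 lowest against the lowest other organ included IDH2, HSPA8, OGDH, MAP2K7, POLR3D, TRMT112, FKBP4, ARIH2 and CELF1, and of the 10 only IDH2 was past 2-fold. IDH2, the mitochondrial isocitrate dehydrogenase, had 5.13 RPKM in adipose (4.56 to 5.74), 14.4 in liver, a median of 30.9 and 89.7 in heart. HSPA8, the constitutive chaperone, had 11.9 RPKM in adipose, 19.6 in liver, a median of 69.4 and 286 in ovary, and OGDH of the citric acid cycle had 5.44 in adipose, 8.42 in liver and a median of 16.4. Adipose lay below the whole range of the other organs for these genes as deposited. With the same median ratio 5 of the 10, and with the same total 6 of the 10, were no longer below the lowest organ, and IDH2 was then within 2-fold of it, with differences of -0.82 and -0.54.

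Against the median organ the low genes were farther away. A2M, a protease inhibitor of plasma, had 0.882 RPKM in adipose (0.747 to 1.04), 0.572 in muscle, a median of 173 and 742 in ovary, so adipose and muscle were both far below the rest. CLU, the secreted chaperone clusterin, had 8.43 RPKM in adipose, 6.64 in muscle, a median of 97.6 and 1411 in ovary. CDH2, or N-cadherin, had 0.0806 RPKM in adipose (8 reads), less than the lowest other organ, muscle with 0.268, and 41.4 in heart. GRB14, an inhibitor of the insulin receptor, had 0.117 RPKM in adipose (6 reads), 0.159 in lung, a median of 6.67 and 51.3 in ovary. The remaining 6 of these 10 genes, MAN1C1, DPF3, ANK3, LRRC39, NHERF1 and PFKFB2, had 0.192 to 0.573 RPKM in adipose with medians of 5.50 to 7.77. All 10 differences, -3.30 to -6.48, stayed at least 2-fold below the median organ under both scalings and without any 1 organ. For A2M and LRRC39 the median lay in a wide gap between organs, and leaving out any 1 organ moved the difference to -8.36 or -4.60 for A2M and to -4.67 or -2.38 for LRRC39.

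The most abundant Ensembl genes in adipose were mostly shared by all organs. COX1, a mitochondrially encoded subunit of cytochrome c oxidase, led with 1553 RPKM in adipose, within a range of 505 in spleen to 6615 in heart. Of the 10 most abundant genes, 5 were mitochondrially encoded (COX1, ATP6, COX3, CYTB and COX2), and RPLP2, a ribosomal protein, had 740.4 RPKM in adipose and 159 to 636 elsewhere. SCD was the tenth. ENSSSCG00000021015, which had no symbol, had 877 RPKM in adipose and 545 in ovary, while the other organs had 1.68 to 31.6, and ENSSSCG00000003546, also without a symbol, had 717 in adipose and 905 in heart.

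By rank over the 15252 genes, the profile of adipose was most like that of ovary (Spearman's rho 0.789, Pearson's r 0.782), followed by heart (0.764 and 0.758) and muscle (0.738 and 0.711), and least like that of testis (0.483 and 0.488). These are descriptions across genes, which share the adipose library and are not independent. Over the 3346 lncRNAs that reached 1 RPKM in at least 1 organ, rho was between 0.462 for liver and 0.525 for spleen, and -0.09 for testis.

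Few lncRNAs were highest in adipose by 2-fold or more. Of the 3346 lncRNAs, 1577 had a read in adipose, 40 (1.2%) were at least 2-fold above every other organ, and 6 (0.179%) were at least 2-fold below every other organ. Against the median organ, 549 (16.4%) were at least 2-fold higher and 287 (8.58%) lower. As deposited, the same rule gave 38 lncRNAs for muscle, 64 for spleen, 65 for liver, 280 for ovary and 1626 for testis, so adipose and muscle had the fewest. This order was not tested after scaling. Of the 40, 27 had at least 20 reads in adipose, 18 were at least 4-fold above the highest other organ and 6 had at least 5 RPKM. Leaving testis out of the other organs raised the 40 to 142, and leaving testis and ovary out raised it to 189.

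TCONS_00823102 was the most abundant of the lncRNAs highest in adipose. It had 544 RPKM in adipose (529 to 559, 5359 reads), 0 in testis, a median of 3.24 and 49.6 in ovary, an 11-fold difference from the highest (9.71 to 12.4). TCONS_00823099 had 33.4 RPKM in adipose (30.1 to 37.0), 2.37 in ovary and 0 in the other 7 organs, a 14.1-fold difference (8.43 to 25.4). Both were thus highest in adipose and next in ovary. Ovary was the next organ for 9 of the 40 lncRNAs and for 35 of the 112 Ensembl genes, more than any other organ. As deposited, ovary was also the highest of the 9 organs for 5536 of all 15252 Ensembl genes and for 478 of all 3346 lncRNAs. The counts of the next organ are therefore not read as a link between adipose and ovary. The identifiers of TCONS_00823102 and TCONS_00823099 lie close together and their positions were not used here, so whether they share reads or overlap a gene was not tested.

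The other 8 of the 10 lncRNAs with the largest differences were low. TCONS_00749824 had 3.10 RPKM in adipose (2.19 to 4.25, at least 38 reads) and TCONS_00054099 had 3.09 (2.10 to 4.38, at least 31 reads), both with 0 reads in the other 12 libraries, at least 7.28-fold and 5.93-fold higher when each of the 8 organs is set at 3 reads. TCONS_00656446, with 1.01 RPKM from at least 10 reads, was also found in adipose alone. TCONS_00288553 (1.45 RPKM), TCONS_00594785 (1.20) and TCONS_00767517 (1.14) had 0 reads in the other 8 organs and were at least 4.98-fold, 2.11-fold and 2.11-fold higher. TCONS_00146853 had 1.77 RPKM in adipose and 1 read in liver, a ratio of 15.5 (2.47 to 644), and TCONS_00466783 had 1.19 and 1 read in kidney, a ratio of 24.1 (3.94 to 989). The reads recovered for these 8 lncRNAs were few, and for those found in fewer than 4 libraries they are lower bounds.

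The 5 lncRNAs lowest against the median organ all had 0 reads in adipose, where 3 reads would have been 0.166 to 0.391 RPKM. TCONS_00441565 was found in all 8 other organs, with 0.0574 RPKM in kidney, a median of 1.84 and 11.4 in heart. The kidney level lay below that of 3 reads in adipose, so adipose could not be told apart from kidney. The difference of TCONS_00441565 from the median organ, -4.14, became -4.78 or -3.5 without any 1 organ. TCONS_00165486 (median 1.56), TCONS_00870152 (1.49), TCONS_00609539 (1.39) and TCONS_00593624 (1.29) were at 0 in at least 1 other organ too. The most abundant lncRNA in adipose, TCONS_00512109, had 2217 RPKM there within a range of 278 in liver to 6380 in heart and so did not set it apart. TCONS_00369295 had 18.5 RPKM in adipose and 44.6 in kidney, 5.93 in liver, and at most 1.56 in the other organs, and TCONS_00576222 had 18.9 in adipose within a range of 1.89 to 36.2.

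**Figure D4:**
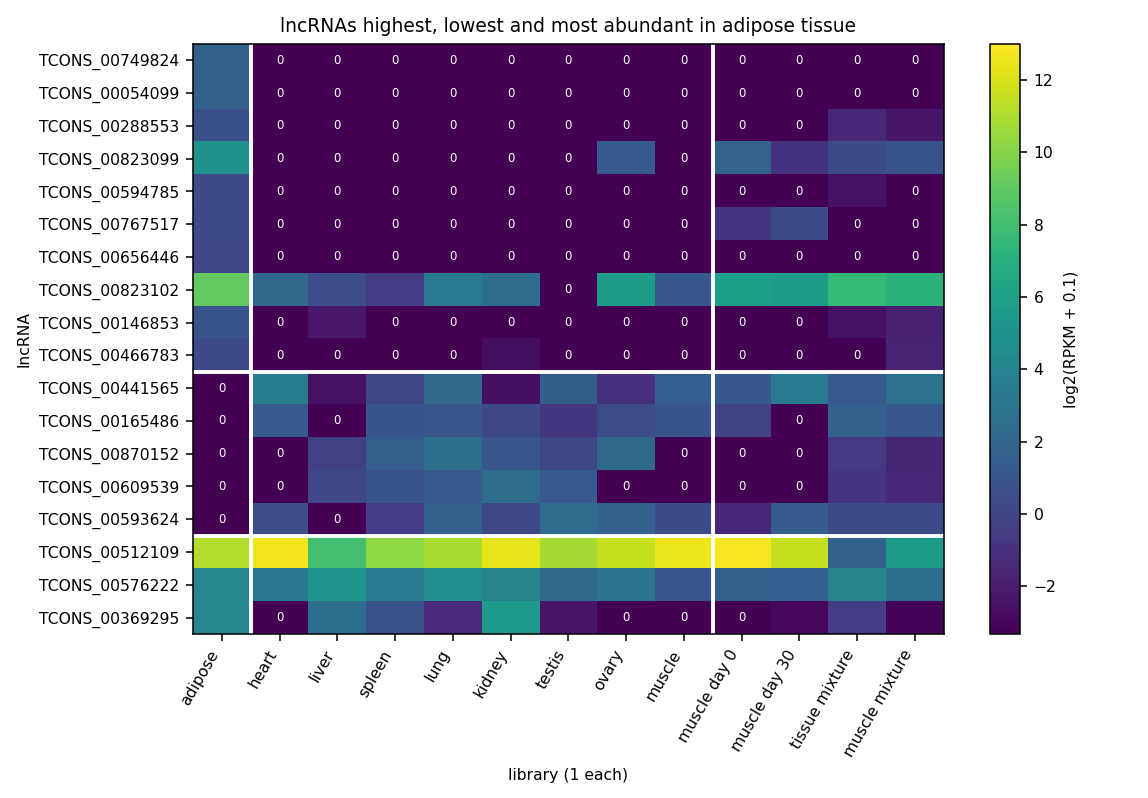
The colour gives log2(RPKM + 0.1) of 18 lncRNAs (rows) in all 13 libraries (columns, 1 each), with white lines beside the adipose column, before the 4 libraries outside the comparison and between sets of lncRNAs, and 0 printed where no read was found. The upper rows are the 10 with the largest difference from the highest other organ, the middle rows the 5 lowest against the median organ, and the lower rows the other most abundant ones, and TCONS_00823102 is light in adipose, in young muscle and in both mixtures.

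The libraries that the comparison had not used give further levels of these genes. Muscle is known to hold fat cells and fibroblasts between its fibres. The 25 named genes had been chosen for lying above every day 240 organ, muscle included. Their counts below are thus descriptions, with no share over all genes beside them. All 25 were lower in muscle of day 0 and of day 30 than in adipose, with 4 and 6 of them at 0. In the tissue mixture 23 of 25 were lower than in adipose, with TSPO (25.3 RPKM) and COL5A1 (32.8) above it, and in the muscle mixture 21 of 25 were lower. The 4 above were ANGPTL1 with 31.4 RPKM, POSTN with 269, COL5A1 with 45.2 and MEOX2 with 20.7, which are 3 genes of secreted or matrix proteins and a homeobox gene. Genes of the lipid droplet and of fatty acid synthesis were low in the muscle mixture, with 0.362 RPKM for PLIN1, 0.221 for CIDEC and 3.35 for SCD.

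Across the 3 ages of muscle, adipocyte genes differed in their order. PLIN1 had 0.177 RPKM at day 0, 0 at day 30 and 0.0194 at day 240, and SCD had 1.06, 0.205 and 0.395. FABP5 was higher, with 229 RPKM at day 0, 69.8 at day 30 and 48.1 at day 240, and PLIN4 had 3.73, 4.14 and 7.77. UCP3 had 2.63, 4.76 and 1.85 RPKM in muscle, which at day 30 was above its 3.82 in adipose. Both matrix genes followed here were lowest at day 240, as COL1A2 had 51.2, 21.8 and 3.61 RPKM and LUM had 15.7, 5.73 and 5.39. TCONS_00823102 had 60.2 RPKM at day 0, 52.7 at day 30 and 2.11 at day 240, while the tissue mixture had 193 and the muscle mixture 144, so it was highest in adipose in all 13 libraries but not confined to it. The mixtures came from other breeds as well, which cannot be told apart from the tissue.

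**Figure D5:**
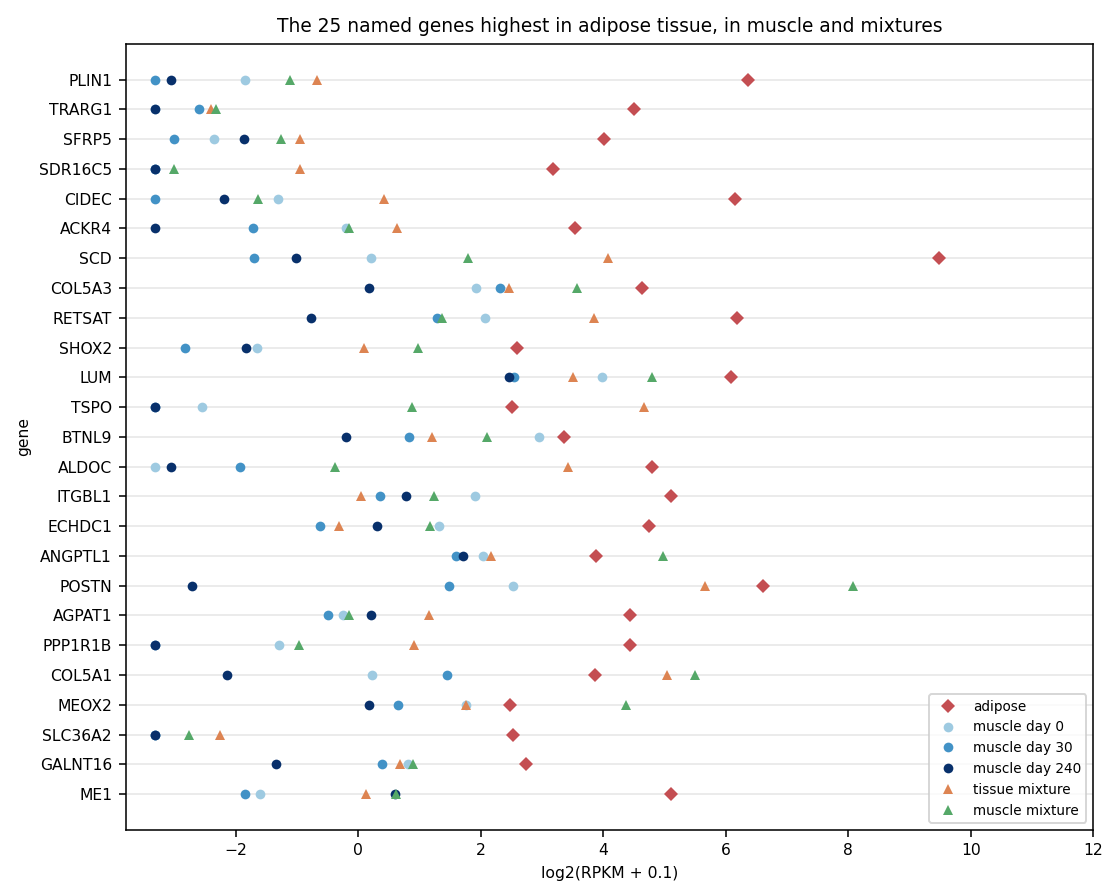
Each row is 1 of the 25 named genes and each point its level in 1 library as log2(RPKM + 0.1), with diamonds for adipose, circles for muscle at day 0, 30 and 240 and triangles for the mixtures of multiple tissues and of muscle, points at equal levels lying over each other. The diamond lies to the right of all other points except for TSPO, ANGPTL1, POSTN, COL5A1 and MEOX2, where 1 or both triangles pass it.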

How the data were processed

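The authors mapped reads with TopHat 1.3.2, assembled transcripts with Cufflinks, counted reads per feature and deposited RPKM values, 1 per feature and library. The genome build of these libraries was not given in the sources used here. From the RPKM values, the total reads behind each library and the whole reads of each feature were recovered (29462 of 29462 features above 0). The largest distance of a total from a whole number was 2.98e-08. Reads of features above 0 in fewer than 4 of 13 libraries are lower bounds. This step was first tested on simulated data. Symbols were paired with 11654 of 21607 Ensembl identifiers. Differences were taken on log2(RPKM + 0.1) for features with at least 1 RPKM in at least 1 of 9 organs, with a limit of 2-fold. A floor of 3 reads per library was used against libraries at 0. Named were members of adipocyte lists and of lists of other cells, the 25 genes highest against the highest other organ (at least 5 RPKM), 10 lowest against the lowest and 10 against the median organ, 10 lncRNAs highest (at least 1 RPKM) and 5 lowest, and the 10 genes and 5 lncRNAs most abundant in adipose. Members and lists were chosen with earlier results of these data known. Alternatives were other pseudocounts, filters, limits, scalings and reference organs. Analyses used Python 3.11.15 with numpy 2.4.6, pandas 2.3.3 and scipy 1.17.1. A few named genes are not reported here one by one, but count in their lists.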

Additional observations from a re-analysis of the deposited data

How the results depend on the processing

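In order, the counts of Ensembl genes are those above the highest organ (112), below the lowest (57), above the median (1575) and below the median (2930), and likewise for lncRNAs (40, 6, 549 and 287). With a pseudocount of 0.01, 151 genes were below the lowest organ, and 15 lncRNAs below the lowest and 541 below the median. With a pseudocount of 1, genes numbered 6 below the lowest, 668 above and 745 below the median, and lncRNAs 20, 0, 101 and 23, while list medians were 2.46 for adipokines, 2.64 for fatty acid synthesis, 1.13 for transcription factors and -0.27 for heat production. With a filter of 0.1 RPKM or none, 210 genes and 129 lncRNAs were above the highest organ and 1261 lncRNAs above the median. With a filter of 5 RPKM, genes numbered 69, 34, 925 and 1784, and lncRNAs 6 above the highest, 93 above and 80 below the median. Scaled to the same total, only 13584 genes and 1705 lncRNAs were tested, so the counts are not over the same features. Genes then numbered 251, 22, 2549 and 1042, and lncRNAs 62 above the highest and 106 below the median. List medians were 5.02 for adipokines, 3.85 for the lipid droplet, 2.29 for uptake and triglyceride synthesis, 4.12 for fatty acid synthesis and 0.77 for amino acid breakdown. Scaled to the same median ratio, 13845 genes and 1937 lncRNAs were tested. Of these, 210 genes were above the highest organ and 1411 below the median, 153 lncRNAs were below the median, and adipokines had 5.0. With a limit of 4-fold, genes numbered 48, 8, 600 and 601, and lncRNAs 18, 0, 218 and 64. Without testis and ovary, 350 genes and 189 lncRNAs were above the highest organ. A minimum of 20 reads in adipose, chosen after seeing the data, left 107 genes and 27 lncRNAs above the highest.

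Leaving out each other organ in turn gave 116 to 203 genes above the highest (203 without ovary), 59 to 150 below the lowest (150 without muscle, 122 without liver, 93 without spleen), 1394 to 1990 above and 2412 to 3775 below the median. For lncRNAs these were 40 to 142 (142 without testis), 6 to 17 (17 without liver, 11 without muscle), 505 to 605 and 263 to 397. List medians ran from 3.71 to 4.53 for adipokines, 2.64 to 2.84 for the lipid droplet, 1.40 to 1.78 for uptake and triglyceride synthesis, 2.69 to 3.79 for fatty acid synthesis, 2.79 to 2.87 for transcription factors, 1.08 to 1.33 for signalling, -1.25 to -0.47 for heat production and -0.19 to 0.24 for amino acid breakdown. The causes were not tested. No paired analysis was possible because there was 1 library per tissue and no shared replicate numbers. With 1 library per organ, animal, depot and protocol cannot be told apart from tissue, and a lncRNA with 0 reads in adipose may have had any level up to that of 3 reads.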

Other observations

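The gene groups described here were chosen after values of these data were seen, so their counts are descriptions. Of 8 genes of the pentose phosphate pathway and other sources of NADPH, 3 were highest in adipose, 5 were at least 2-fold above the median organ and 0 below it, with a median difference of 2.04. TALDO1, the transaldolase of that pathway, had 49.6 RPKM in adipose. Of 5 secreted modulators of Wnt signalling, 3 were highest in adipose, among them SFRP1 with 9.42 RPKM against 5.82 in ovary, while DKK3 had 0.467 in adipose and 87.9 in ovary. Of 20 genes of matricellular proteins and collagen processing, 11 were at least 2-fold above the median organ and 0 below it, with a median difference of 1.75.

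Other groups lay at or below the median organ. Of all 15252 genes, 10.3% were at least 2-fold above it and 19.2% below it, with a median difference of -0.27. Of 15 citric acid cycle genes, IDH2 and OGDH among them, 0 were above it by 2-fold and 6 were below it, with a median difference of -0.93. Of 20 heat shock and chaperone genes, 0 were above and 6 below, with a median difference of -0.74 that stayed negative under both scalings (-0.18 and -0.41). Of 14 cholesterol synthesis genes, 0 were above and 6 below, with a median difference of -0.92 that was 0.37 without testis and ovary. Of 13 cell cycle genes, 1 was above and 5 below. The 16 complement and clotting genes (3 above, 7 below) and the 13 mitochondrially encoded genes (0 above, 2 below) had median differences of -0.27 and -0.32, close to that of all genes. Both turned positive under both scalings, to 0.78 and 1.02 with the same total.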
